A study of Mus musculus with 18 samples.

Results

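Folh1 encodes glutamate carboxypeptidase II, and its RNA in mouse retina was followed here after a single injection into the vitreous. All probe sets annotated with Folh1 and no other gene were taken, which gave 1 probe set (1450154_at, designed on NM_016770) of 45101. The 18 arrays came from retinas of 2-month-old male C57BL6/J mice, with 3 biological replicates in each of 6 groups. The groups were TAA (triamcinolone) at day 7, DEX (dexamethasone) at day 7, BSS (the control injection) at day 7, TAA at day 30, DEX at day 30 and BSS at day 30. Triamcinolone and dexamethasone are synthetic glucocorticoids. The labels give neither their doses nor whether a sample pooled retinas, and whole retina was measured, so a change in the number of cells of a type and a change of RNA per cell cannot be told apart. The gene was chosen by its measured values, for their height in TAA against BSS at day 7. For Folh1, every comparison that holds TAA day 7 or BSS day 7 arrays is therefore given as a description, with no test. The tests of Folh1 compare the 4 groups of the other 12 arrays, with the spread estimated over all 18. For lists of other genes, limma counts at day 7 are also given, beside the share of all genes.

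Glutamate carboxypeptidase II is a zinc peptidase anchored in the cell membrane with its active site outside the cell. In the nervous system it cleaves the dipeptide N-acetylaspartylglutamate (NAAG) into N-acetylaspartate (NAA) and glutamate, and there it is found mainly on glial cells. NAAG is released by neurons, including neurons of the retina, and acts on the metabotropic glutamate receptor encoded by Grm3. In the human small intestine the same enzyme trims glutamate residues from dietary folate, which gave the gene its symbol, and in human prostate it is known as prostate-specific membrane antigen.

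In the RefSeq annotation of GRCm38.p6, Folh1 lies on the minus strand of chromosome 7 at chr7:86716525-86776053, a gene of 59529 bp. The window of 300 bases around its listed start (250 before and 50 after) is printed because the gene stood out in the TAA day 7 samples. The window of Arrdc2 is printed beside it, since Arrdc2, an arrestin-domain gene listed here among glucocorticoid-responsive genes, had the array pattern closest to that of Folh1. Both are read 5′ to 3′ along the gene, from chr7:86775815-86776114 and from chr8:70839671-70839970, each on the minus strand. Capitals mark the letters that match ACANNNTGT, the spacing of the palindromic glucocorticoid receptor motif.
Folh1: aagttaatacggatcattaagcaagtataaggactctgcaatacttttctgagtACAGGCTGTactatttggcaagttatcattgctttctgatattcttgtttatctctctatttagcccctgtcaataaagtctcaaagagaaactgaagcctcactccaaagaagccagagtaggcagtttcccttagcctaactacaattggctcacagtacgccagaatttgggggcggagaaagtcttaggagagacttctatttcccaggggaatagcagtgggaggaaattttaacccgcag
Arrdc2: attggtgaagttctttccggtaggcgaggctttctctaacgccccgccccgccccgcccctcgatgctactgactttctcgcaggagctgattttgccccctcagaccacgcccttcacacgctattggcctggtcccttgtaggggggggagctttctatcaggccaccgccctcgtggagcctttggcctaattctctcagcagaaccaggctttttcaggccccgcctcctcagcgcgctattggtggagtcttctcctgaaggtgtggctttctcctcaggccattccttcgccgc
The Folh1 window held 1 match, ACAGGCTGT, which began 196 bases before the listed start at chr7:86776052-86776060. At least 1 match was present in 6.85% of 32851 promoter windows of this length. The motif reads the same on both strands, and the Arrdc2 window held 0 matches. The shorter half-site letters AGAACA, searched on both strands, had 0 matches in the Folh1 window, against a share of 19% of all windows. TTCNNNGAA, the spacing of STAT factor sites and also the same on both strands, had 0 matches there, against 8.3%, and TATAAA on both strands had 0 matches, against 13.6%. The window reaches 61 bases beyond the gene's annotated 5′ end and lies inside the gene for 239 bases. The listed start is therefore inside the annotated gene, and the ACAGGCTGT match spans the annotated 5′ end at 86776053. The GC content was 42.0% with 4 CpG in the Folh1 window and 60.0% with 17 CpG in the Arrdc2 window, which put Folh1 at the 14.9 percentile of all windows and Arrdc2 at the 71.4 percentile. These matches are descriptions of letters and not of bound sites.

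The deposited value of a probe set on an array is its distance from that probe set's own median over the 18 arrays, taken as log2, so it holds no expression level and no signal over background. For the same reason the tissue label could not be checked against the level of retinal markers. The mean over 8 measured rod genes stayed between -0.24 and 0.12 on all arrays, while the mean over 11 lens genes reached 4.38 on TAA day 30 replicate 3. The spread of all probe sets around 0 differed between arrays. Its SD was 0.35 on TAA day 30 replicate 2 and 0.338 on TAA day 7 replicate 2, against 0.147 to 0.296 on the other arrays. The 3′ minus 5′ difference of the actin control probe sets was -0.46 on TAA day 30 replicate 2, against -0.17 to 0.14 on the others. Most values of Folh1, of the lists and of its most similar genes that use these TAA arrays are given with and without them, or array by array. The part of RNA quality in these values was not tested.

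On the 3 TAA day 7 arrays Folh1 stood at 1.60, 2.20 and 1.05 (log2 relative to its median). On the DEX day 7 arrays it stood at -0.09, -0.26 and -0.12, and on the BSS day 7 arrays at -0.48, -0.31 and 0.03. All 3 TAA day 7 arrays lay above every other array of the series. Their order put replicate 2 highest and replicate 3 lowest, yet the lowest of them was still above the highest array outside the group. Within single arrays, the Folh1 value was exceeded by 15, 16 and 1 of 18193 genes on TAA day 7 replicates 1, 2 and 3. Replicate 3, on which all probe sets together spread least, was thus the array where Folh1 stood nearest the top.

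At day 30, the TAA arrays had Folh1 values of 0.07, 0.86 and 0.08. The DEX day 30 arrays had 0.19, -0.03 and -0.29, and the BSS day 30 arrays -0.16, -0.55 and 0.12. A single array, TAA day 30 replicate 2, lay above the others at this day, and the 3 groups overlapped. Folh1 was exceeded by 239 genes on that array and by 6523 and 4475 genes on TAA day 30 replicates 1 and 3.

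**Figure D1:**
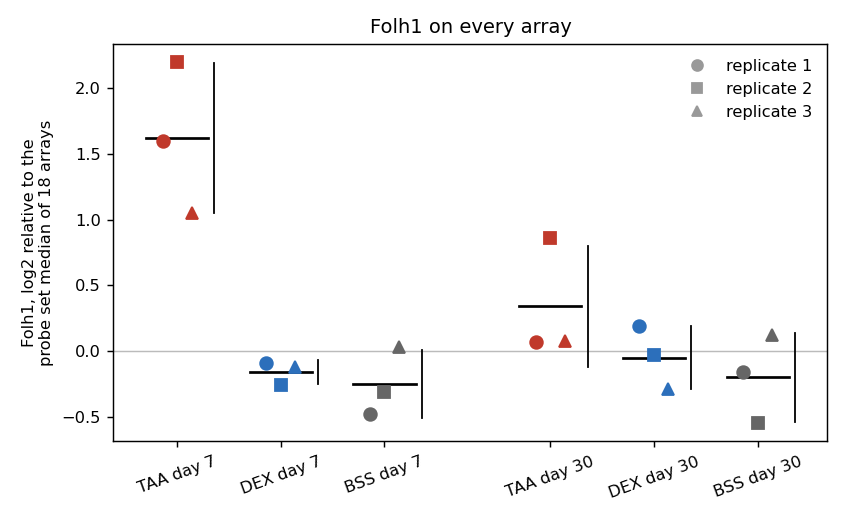
Folh1 on each of the 18 arrays. The y axis is log2 relative to the probe set's median over all arrays, points are arrays, the horizontal bar is the group mean and the vertical line spans 1 SD on either side (n = 3). The TAA day 7 arrays, from 1.05 to 2.20, lie above all others, and TAA day 30 replicate 2, at 0.86, is next.

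The group means, from high to low, were 1.62 ± 0.57 for TAA day 7, 0.34 ± 0.46 for TAA day 30, -0.05 ± 0.24 for DEX day 30, -0.16 ± 0.09 for DEX day 7, -0.20 ± 0.34 for BSS day 30 and -0.25 ± 0.26 for BSS day 7 (SD, n = 3 each). TAA day 7 was the only group in this order whose arrays did not overlap with those of the next one. The neighbours from TAA day 30 downward overlapped, and the means of the 4 groups with DEX or BSS lay between -0.25 and -0.05, with overlapping arrays. Folh1 was a variable gene in these data. Its residual SD within groups was 0.361, at the 94.4 percentile of all genes, against a median of 0.179.

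At day 7, Folh1 was 1.87 ± 0.26 higher on the log2 scale in TAA than in BSS retinas (SE, 95% interval 1.32 to 2.41), a 3.65-fold ratio. These are the values by which it was chosen. The lowest TAA array lay 1.02 above the highest BSS array, and 5 of 18193 genes had a higher difference. Other genes high in this comparison are named by the fit's order of p-values, not of differences, and this order is no test. Next after Folh1 came Prodh (proline dehydrogenase) with a difference of 0.96 ± 0.16 and Zbtb16 (a zinc finger repressor induced by glucocorticoids) with 0.83 ± 0.16. Then came Saa3 (an acute phase protein) with 2.02 ± 0.39, Arrdc2 with 1.02 ± 0.21 and Pcolce2 (a collagen processing enhancer) with 0.71 ± 0.15 (SE). Of these, Saa3 alone had a higher difference than Folh1. Serpina3n at 2.98 ± 0.78 and A2m at 1.94 ± 0.53, both on the reactive gliosis list, were also higher. Without TAA day 7 replicate 2 the Folh1 difference was 1.58, and without replicate 3 it was 2.15, which were the lowest and highest values on leaving out any 1 array.

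Against DEX at the same day the difference in TAA retinas was 1.77 ± 0.26 (95% interval 1.23 to 2.32), a 3.42-fold ratio, with a gap of 1.14 between the groups, and 1.48 without TAA day 7 replicate 2 (5.46% of all genes did not overlap in that direction). Only 1 gene had a higher difference in that comparison. DEX minus BSS at day 7 was 0.10 ± 0.26 (95% interval -0.45 to 0.64), and those groups overlapped. The comparisons share the TAA arrays or the BSS arrays and are set side by side only. They hold arrays by which Folh1 was chosen, so their intervals are descriptions and no tests. The drugs were compared without known doses, so a difference between them cannot be told apart from one of dose.

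Between the days, Folh1 in TAA retinas was lower at day 30 than at day 7 by a log2 difference of -1.28 ± 0.26 (95% interval -1.82 to -0.74), a ratio of 0.412. Folh1 was chosen for its height on the TAA day 7 arrays, so this interval is a description and no test of a fall. The TAA groups of the 2 days did not overlap, as with 6.89% of all genes in that direction, and were 0.19 apart, the distance between TAA day 30 replicate 2 and TAA day 7 replicate 3. Without TAA day 30 replicate 2 the difference was -1.54, and without TAA day 7 replicate 2 it was -0.99. In BSS retinas the difference, day 30 minus day 7, was 0.06 ± 0.26 (95% interval -0.49 to 0.60), in a comparison where limma called 0.0275% of genes.

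The tests of Folh1 itself are those on arrays that the choice did not use. At day 30 the TAA minus BSS difference was 0.53 ± 0.26 (SE, 95% interval -0.01 to 1.08), a 1.45-fold ratio, and 7 of the 9 TAA and BSS array pairs were higher in TAA. It did not pass: limma gave p = 0.0543, adjusted p = 0.691 over 18193 genes, and the exact two-sided permutation test gave p = 0.3, where 3 arrays against 3 cannot go below 0.1. A larger absolute difference was found for 1.87% of genes, and Folh1 was number 150 from the top. Without TAA day 30 replicate 2 the difference was 0.27 ± 0.26, and without BSS day 30 replicate 2 it was 0.36. In this comparison limma called 0 genes at an adjusted p under 0.05, with 1318 at an unadjusted p under 0.05.

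TAA minus DEX at day 30 was 0.38 ± 0.26 (95% interval -0.16 to 0.93), with p = 0.158, adjusted p = 0.491 by limma and p = 0.4 by the exact permutation test. Without TAA day 30 replicate 2 it was 0.12. DEX minus BSS at day 30 was 0.15 ± 0.26 (95% interval -0.39 to 0.70), with adjusted p = 0.836 by limma and p = 0.6 by the exact permutation test. It turned to -0.02 without BSS day 30 replicate 2. For DEX, day 30 minus day 7 was 0.11 ± 0.26 (95% interval -0.43 to 0.66), with adjusted p = 0.858 by limma and p = 0.5 by the exact permutation test, and it was -0.00511 without DEX day 30 replicate 1. None of the 4 tests passed, and the intervals do not show that the groups were alike, since each reaches a log2 of at least 0.66.

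**Figure D2:**
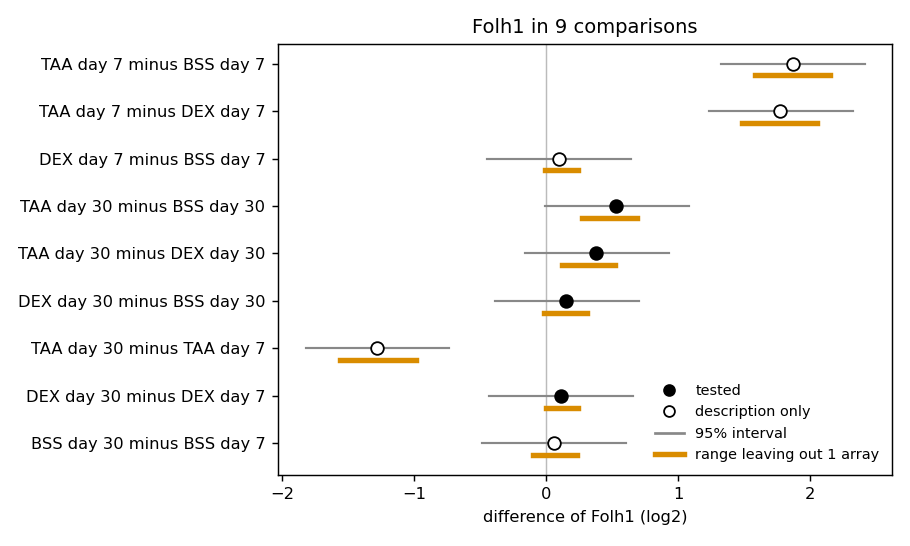
Differences of Folh1 (log2, x axis) in 9 comparisons, with the 95% interval in grey and the range on leaving out 1 array in orange. Filled points are the 4 tested comparisons, of which none passed, and open points are described only; TAA minus BSS at day 7 was 1.87 and at day 30 it was 0.53.

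Among the genes that make, carry or break down NAAG and NAA, differences in TAA against BSS at day 7 ran from -0.14 to 0.53, against 1.87 for Folh1. Of 10 measured genes, 0 passed in TAA against BSS at day 7 by limma (0 also at an unadjusted p under 0.05), and 0 passed at day 30 (1 at an unadjusted p under 0.05, which was lower), where the shares of all genes called were 0.0055% and 0%, and 3.95% and 7.24% at an unadjusted p under 0.05. The 1 gene called at day 7 was Folh1 itself, which restates its choice. The list's median difference was 0.02 at day 7 and -0.03 at day 30, beside medians of 0.00 and -0.02 over all genes. The groups did not overlap, with TAA higher, for 2 of the 10 at day 7 (4.35% of all genes) and for 1 at day 30 (5.86%). Without TAA replicate 2 of the day, the list's median was -0.04 at day 7 and -0.03 at day 30.

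NAAG is made by the synthetases encoded by Rimkla and Rimklb. Rimklb stood at 0.19, 0.64 and 0.22 in TAA day 7 retinas and at -0.04, -0.12 and -0.37 in BSS day 7 retinas, a difference of 0.53 ± 0.30, the highest of the list. The groups did not overlap, and without TAA day 7 replicate 2 the difference was 0.38. The gene spread widely at day 30, where TAA retinas had -0.85, 0.60 and -0.16 and BSS retinas 0.15, -0.12 and -0.19. Rimkla differed by -0.10 ± 0.11 at day 7 and by 0.18 ± 0.11 at day 30. Nat8l, which makes NAA, differed by 0.11 ± 0.14 at day 7 and by -0.13 ± 0.14 at day 30.

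Aspa, aspartoacylase, breaks NAA down to acetate and aspartate. It stood at 0.10, -0.04 and -0.08 in TAA day 30 retinas against 0.24, 0.12 and 0.41 in BSS day 30 retinas, a difference of -0.26 ± 0.11 with adjusted p = 0.668 by limma. The 2 groups did not overlap, as was the case with TAA lower for 7.54% of all genes. The NAA carrier Slc13a3 differed by -0.02 at day 7 and 0.02 at day 30, and Slc17a5, a lysosomal and vesicular transporter, by -0.06 and 0.12. The remaining enzymes, Acy1, Acy3, Naaa and Asrgl1, which act mainly on other substrates, ranged from -0.07 to 0.12 at day 7 and from -0.21 to 0.13 at day 30.

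The relatives of Folh1 in the same peptidase family differed by -0.22 to 0.45 in TAA against BSS at day 7. Naalad2 encodes the closest relative with NAAG-cleaving activity. It stood at -0.18, -0.41 and -0.24 in TAA day 7 retinas and at 0.11, -0.30 and 0.01 in BSS day 7 retinas, a difference of -0.22 ± 0.17, below 0 where Folh1 was above it. Naaladl1, an aminopeptidase, differed by -0.09 ± 0.11, and Naaladl2 by 0.00 ± 0.12. The more distant Tfrc and Tfr2 (transferrin receptors), Qpct (glutaminyl cyclase) and Cpq (a plasma carboxypeptidase) differed by 0.45 ± 0.53, 0.01 ± 0.18, 0.40 ± 0.18 and 0.15 ± 0.17. Without TAA day 7 replicate 2 these were 0.99 for Tfrc, 0.12 for Tfr2, 0.19 for Qpct and -0.11 for Cpq. Of the 7 homologues measured, 0 passed at day 7 by limma (1 at an unadjusted p under 0.05) and 0 at day 30 (0 at an unadjusted p under 0.05), with medians of 0.01 and -0.07 (0.06 and 0.04 without TAA replicate 2 of the day). The shares of all genes at an unadjusted p under 0.05 were 3.95% and 7.24%. Tfr2 at 0.37 ± 0.18 and Cpq at 0.36 ± 0.17 were the 2 whose TAA and BSS groups did not overlap at day 30, with TAA higher, as did 5.86% of all genes.

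**Figure D3:**
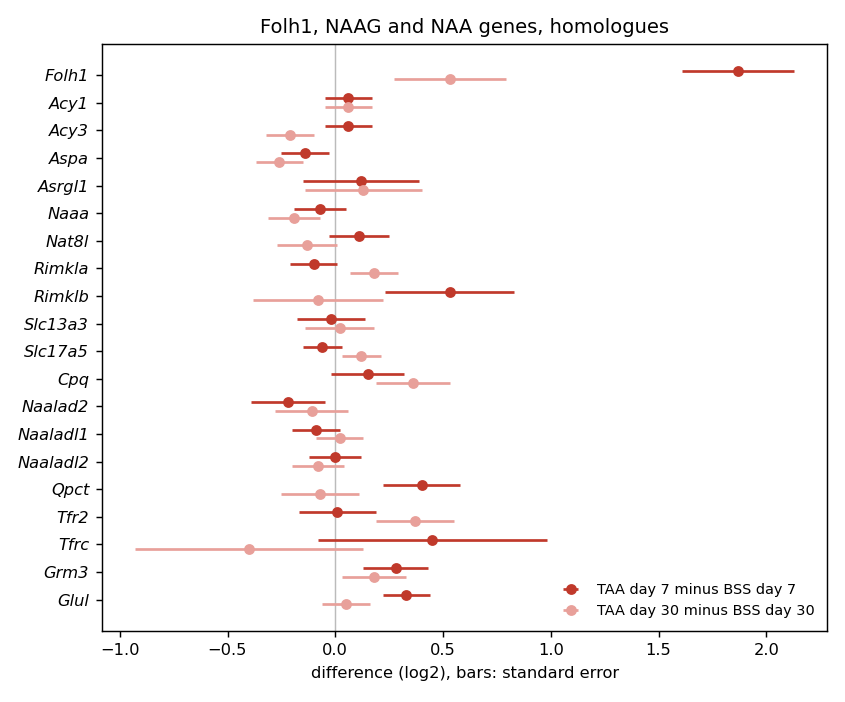
TAA minus BSS differences (log2, x axis) of Folh1, the NAAG and NAA genes, the peptidase homologues, Grm3 and Glul, with standard errors as bars. Dark points are day 7 and light points day 30; Folh1 at day 7 (1.87) lies apart from the next highest value at that day, Rimklb at 0.53.

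Downstream of the peptidase stand the receptors of NAAG and glutamate. Grm3 stood at 0.03, 0.45 and 0.35 in TAA day 7 retinas and at -0.02, 0.05 and -0.04 in BSS day 7 retinas, a difference of 0.28 ± 0.15, with 1 TAA array inside the BSS range. At day 30 its difference was 0.18 ± 0.15. Of 6 metabotropic receptor genes measured of 8 listed, 0 passed by limma at day 7 (0 at an unadjusted p under 0.05) and 0 at day 30 (1 at an unadjusted p under 0.05, Grm5, higher at 0.95 ± 0.43). Grm5 stood at 0.10, -0.26 and 0.31 in TAA day 30 retinas and at -0.93, -1.79 and 0.03 in BSS day 30 retinas. These groups overlapped, and DEX minus BSS at day 30 was 1.01 ± 0.43. The list's medians were 0.06 at day 7 and 0.10 at day 30 (0.03 and 0.03 without TAA replicate 2 of the day). For the NMDA receptor subunits, 6 measured of 7, 0 passed at either day, with medians of 0.16 and -0.07 (0.04 and -0.08 without TAA replicate 2 of the day). At an unadjusted p under 0.05 by limma there were 0 at day 7 and 1 at day 30, which was lower. The shares of all genes at that threshold were 3.95% at day 7 and 7.24% at day 30, and the medians over all genes were 0.00 and -0.02.

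Glutamate freed outside the cell is taken up by glia and turned into glutamine by glutamine synthetase, encoded by Glul. Glul stood at 0.17, 0.00 and 0.27 in TAA day 7 retinas against -0.09, -0.24 and -0.23 in BSS day 7 retinas, a difference of 0.33 ± 0.11. The groups did not overlap at day 7, as with TAA higher for 4.35% of all genes, and at day 30 Glul differed by 0.05 ± 0.11. Of 16 measured genes of glutamate uptake and recycling, 0 passed by limma in TAA against BSS at day 7 and 0 at day 30. At an unadjusted p under 0.05 by limma there was 1 gene at day 7, which was higher. At day 30 there were 4, of which 3 were lower and 1 higher. The shares of all genes at that threshold were 3.95% and 7.24%. The list's medians were 0.04 and 0.08 (0.04 and -0.06 without TAA replicate 2 of the day), beside 0.00 and -0.02 over all genes. One member passed elsewhere. Slc38a1, a glutamine transporter, fell by 0.54 ± 0.11 (SE) in DEX retinas at day 30 relative to day 7, with adjusted p = 0.0283 by limma, beside 2.63% of all genes called in that comparison and 2.04% called lower. Its DEX day 30 arrays stood at -0.23, -0.40 and -0.32 and its DEX day 7 arrays at 0.25, 0.24 and 0.16, which did not overlap, as with 18.9% of all genes in that direction.

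Of 23 measured genes of folate uptake and one-carbon metabolism, 0 passed by limma in TAA against BSS at day 7 (1 at an unadjusted p under 0.05) and 0 at day 30 (7 at an unadjusted p under 0.05, 5 of them higher). The medians were 0.04 and 0.10, and the groups did not overlap, with TAA higher, for 1 gene at day 7 and 6 genes at day 30, where the shares of all genes were 4.35% and 5.86%, and 3.95% and 7.24% at an unadjusted p under 0.05. The day 7 count is at the share of all genes. Without TAA replicate 2 of the day the medians were 0.04 and 0.13. The highest difference at day 7 belonged to Aldh1l1, a folate dehydrogenase found in astrocytes and Müller glia. It stood at 0.93, 1.27 and 0.24 in TAA day 7 retinas and at -0.25, -0.19 and 0.04 in BSS day 7 retinas, a difference of 0.95 ± 0.23, and of 0.72 without TAA day 7 replicate 2. In DEX retinas Aldh1l1 fell by 0.90 ± 0.23 at day 30 relative to day 7 (adjusted p = 0.0469 by limma), and this call was lost on leaving out any 1 of the 6 arrays.

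The genes most like Folh1 over the 18 arrays, among 16330 ranked by Pearson's r, were Arrdc2 (r = 0.89), Saa3 (0.88), Galnt18 (0.87), Aldoc (0.86), Adhfe1 (0.85), F13a1 (0.83), Smox (0.82), Olfm4 (0.82), Msr1 (0.80) and Mlc1 (0.80). The 99th percentile of r over these genes was 0.64. All points share the same arrays, and the likeness was carried by the TAA day 7 group: over the 15 arrays outside it r ranged from 0.24 for F13a1 to 0.57 for Smox. Over the 11 arrays that also leave out BSS day 7 and TAA day 30 replicate 2, it ranged from -0.01 for F13a1 to 0.52 for Adhfe1. Without TAA day 7 replicate 2 alone, r was 0.80 for Arrdc2 and 0.79 for Saa3, and it lay between 0.60 for Msr1 and 0.82 for Smox over the 10 genes. Arrdc2 stood at 0.77, 1.34 and 0.35 in TAA day 7 retinas and at -0.31, -0.30 and 0.01 in BSS day 7 retinas, with the same order of replicates as Folh1. Saa3 stood at 1.74, 3.20 and 0.61 in TAA day 7 retinas and at -0.24, -0.23 and -0.05 in BSS day 7 retinas. Aldoc, the aldolase of astrocytes, stood at 1.55, 1.80 and 0.50 against 0.28, -0.12 and -0.06 in those groups.

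Over the 12 arrays outside TAA day 7 and BSS day 7, the genes of highest r were Jagn1 (r = 0.95), Rnf4 (0.94), Lancl2 (0.94), Crbn (0.94), Gnpat (0.93), Gtf2b (0.93), Cacnb2 (0.92), Cct3 (0.92), Prdx3 (0.92) and Trpc1 (0.91), with a 99th percentile of 0.80 over all ranked genes. The 10 and the 10 shared 0 genes. Without TAA day 30 replicate 2, the array of widest spread, r for these genes lay between 0.72 for Trpc1 and 0.87 for Jagn1. Jagn1 had its highest value of all arrays there, at 0.76. In TAA against BSS at day 7 these 10 genes differed by -0.06 to 0.24.

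**Figure D4:**
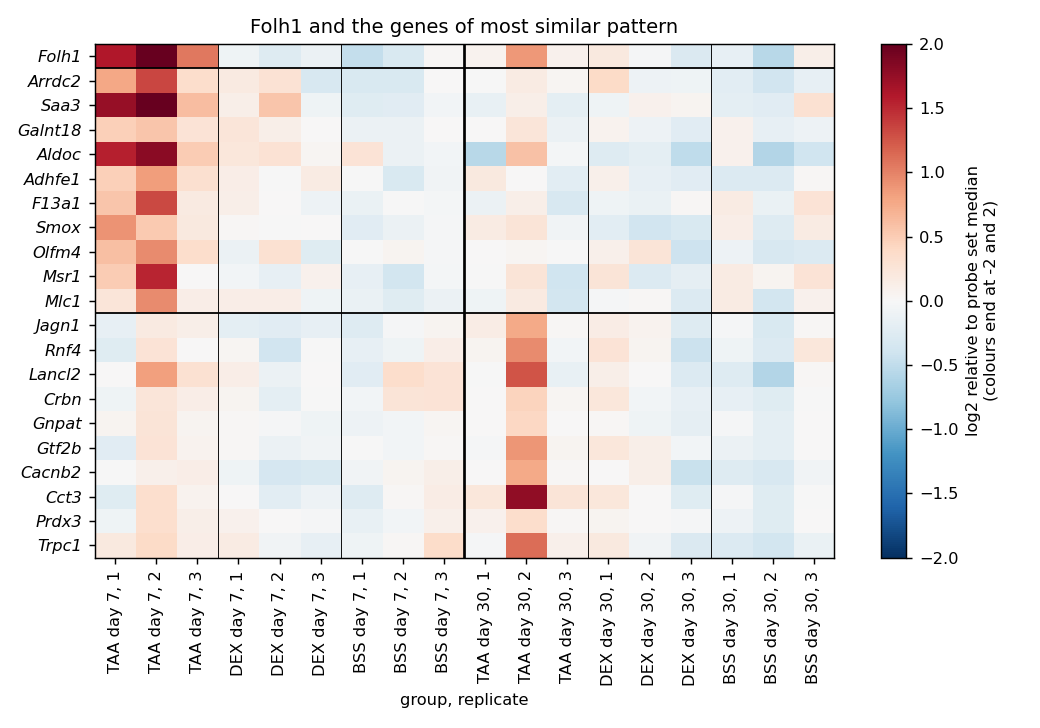
Folh1 (top row), the 10 genes of highest r over all 18 arrays and the 10 of highest r over the 12 arrays outside TAA day 7 and BSS day 7. Colour is log2 relative to each probe set's median, ending at -2 and 2; the first 10 genes are highest in the TAA day 7 columns and the second 10 in TAA day 30 replicate 2.

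The list of genes that respond to glucocorticoids was made with earlier results of these data known. Of its 30 measured genes, among which are Arrdc2, Zbtb16 and Glul, 25 were above 0 in TAA against BSS at day 7, and the groups did not overlap with TAA higher for 15, beside 4.35% of all genes. The median was 0.29, with differences from -0.22 to 2.52, and by limma 0 passed (14 at an unadjusted p under 0.05, beside 3.95% of all genes). Without TAA day 7 replicate 2 the median was 0.29 and 23 genes were above 0. Its members Tsc22d3 and Pdk4 differed by 0.13 ± 0.14 and -0.02 ± 0.12 in TAA against BSS at day 7, with overlapping groups. The mean over the list was 0.67, 0.62 and 0.14 on the TAA day 7 arrays and -0.04, -0.08 and -0.03 on the BSS day 7 arrays. At day 30 it was 0.03, 0.02 and -0.04 on the TAA arrays, with a median difference against BSS of 0.09 (0.06 without TAA day 30 replicate 2). In DEX against BSS at day 7 the list's median was -0.01, with differences from -0.64 to 1.15, and 0 passed by limma (0 at an unadjusted p under 0.05). The groups did not overlap with DEX higher for 5 genes (7.21% of all genes) and with DEX lower for 2 (7.08%).

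Glial lists were high on some of the same arrays as Folh1. Of 18 measured genes of reactive gliosis, 16 were above 0 in TAA against BSS at day 7 with a median of 0.94, and 8 did not overlap with TAA higher, beside 4.35% of all genes. By limma 0 passed (12 at an unadjusted p under 0.05, beside 3.95% of all genes). Without TAA day 7 replicate 2 the median was 0.37 and 15 genes were above 0. The list's mean was 0.67, 1.76 and -0.03 on the TAA day 7 arrays and -0.11, -0.52 and -0.19 on the BSS day 7 arrays. On replicate 3 the gliosis mean, at -0.03, was lowest of the TAA day 7 arrays but above every BSS day 7 array, and Folh1 stood at 1.05. A link between Folh1 and gliosis was not tested. On the DEX day 7 arrays the gliosis mean was 0.61, 0.58 and 0.41, where Folh1 was at or below -0.09 on every array. The median gliosis difference of DEX against BSS at day 7 was 0.68, with 15 of 18 genes not overlapping (7.21% of all genes did not overlap in that direction). Its member Gfap, also on the astrocyte list, the intermediate filament of reactive glia, stood at 0.77, 2.11 and 0.01 in TAA day 7 retinas, 0.77, 0.41 and 0.35 in DEX day 7 retinas, and -0.06, -0.76 and 0.11 in BSS day 7 retinas.

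The 17 measured Müller glia genes had a median of 0.15 in TAA against BSS at day 7 (-0.05 without TAA day 7 replicate 2), and their mean was -0.10, 0.38 and -0.03 on the TAA arrays against -0.01, -0.13 and -0.09 on the BSS arrays. Of these genes 10 were above 0, with differences from -0.57 to 0.76. The groups did not overlap with TAA higher for 5 (4.35% of all genes) and with TAA lower for 2 (4.96%). Without TAA day 7 replicate 2 these counts were 5 (11.3%) and 3 (10.1%). The 7 astrocyte genes had a median of 0.79 (0.40 without TAA day 7 replicate 2), and their mean was 0.26, 0.97 and 0.08 on the TAA day 7 arrays against 0.25, -0.24 and 0.03 on the BSS day 7 arrays. They did not move together: 5 of the 7 were above 0, and differences ran from -1.12 for Gja1 to 1.25 for Aldoc. In rodents Folh1 is also known from Schwann cells. The 6 Schwann cell genes had means of 0.02, 0.36 and -0.03 on the TAA day 7 arrays against 0.01, -0.13 and -0.04 on the BSS day 7 arrays. Their differences ran from -0.45 to 0.52, with a median of 0.27 (0.12 without TAA day 7 replicate 2). The groups did not overlap with TAA higher for 3 (4.35% of all genes). Without that array this held for 3 (11.3%), and 1 was lower (10.1%). The 11 genes of oligodendrocytes and optic nerve had means of 0.12, 0.09 and -0.08 on the TAA day 7 arrays against 0.02, -0.08 and 0.03 on the BSS day 7 arrays. The microglia and leukocyte list, with 15 genes, had means of -0.43, 0.63 and -0.25 on the TAA day 7 arrays against 0.05, -0.17 and 0.21 on the BSS day 7 arrays. TAA replicates 1 and 3 thus lay below every BSS array. The list's median difference was -0.05, and -0.30 without TAA day 7 replicate 2. The groups did not overlap with TAA lower for 2 of its genes (4.96% of all genes), and for 9 without that array (10.1%). For all these lists replicate 2 was the highest TAA day 7 array except oligodendrocytes, where it was second. No level can be read from these centred values, so whether any defining marker was absent is unknown, and the part of cell makeup in the Folh1 values was not tested.

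Over the 18 lists, 217 of 236 distinct genes were measured, and 5 passed, all of them in DEX at day 30 against DEX at day 7. These are 2.3% of the measured list genes, near the 2.63% of all genes called there, so the count is not a result about the lists. Besides Slc38a1 and Aldh1l1, Gfap fell by 1.79 ± 0.40 (adjusted p = 0.031), Stat3, the transcription factor of cytokine signalling, by 0.87 ± 0.21 (adjusted p = 0.0376) and the microglial Tmem119 by 0.53 ± 0.13 (adjusted p = 0.0376), by limma with SE. Leaving out 1 array ended the call for Gfap and Stat3 in 5 of 6 fits and for Slc38a1 and Tmem119 in 4 of 6. The calls of Aldh1l1, Stat3 and Slc38a1 were also lost with the mean of each gene's probe sets, at -0.49, -0.37 and -0.23. Over all alternatives the adjusted p of these 5 genes ran from 0.000635 to 0.216 by limma. For Folh1 the difference between the same arrays was 0.11 ± 0.26.

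The measured genes nearest to Folh1 on chromosome 7 lay far from it, beyond clusters of olfactory and vomeronasal receptor genes. On one side the closest was Nox4, an NADPH oxidase, 468.4 kb away, which differed by -0.06 ± 0.11 in TAA against BSS at day 7. Grm5, 807.9 kb away, differed by 0.53 ± 0.43 and Ctsc, a lysosomal protease at 1502.0 kb, by 0.52 ± 0.28. Ctsc was high on TAA day 7 replicate 2, at 1.21, and stood at -0.13 and 0.08 on the other TAA arrays of that day. On the other side Zfand6 at 2026.5 kb and Fah at 2110.6 kb differed by 0.03 ± 0.17 and -0.12 ± 0.12. None of these neighbours had TAA day 7 values all above 1, as Folh1 did.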

How the data were processed

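Retinal RNA was labelled with biotin after 2 rounds of amplification and hybridised to Affymetrix arrays, 3 per group, which bounds the precision. Per the submitters' processing notes the authors used RMA, with no version or settings given in the sources used here. The deposited log2 values are centred: each probe set's median over the 18 arrays was within 5e-07 of 0. Log base and direction are assumed as RMA writes them. The platform annotation named 1 gene for 34945 probe sets, several for 932 and none here for 9160, and 64 were controls. For 9010 genes with several probe sets the one of highest interquartile range was kept, giving 18193 genes.

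Limma 3.58.1 (R 4.3.3) was fitted over all arrays with 1 coefficient per group (12 residual and 5.21 prior degrees of freedom), and p-values were adjusted by Benjamini-Hochberg over all genes at 0.05. The fit was tested on simulated data. Folh1, the 18 gene lists and the rule for named genes were chosen with earlier results of these data known. Named were Folh1, the 10 genes of highest r over 18 and over 12 arrays (no predicted or clone symbols), list members that passed, otherwise those of smallest p in TAA against BSS, all NAAG and homologue genes, Grm3, Glul and measured neighbours. Prodh and Pcolce2, high in the fit's order of p-values, were named after their values were seen. Promoter sequences are RefSeq's, for 7 of the 10 genes most like Folh1. Labels give biological replicates but no animal or batch, so p-values measure the spread between these samples. Replicate numbers recur in all groups. Same-numbered arrays deviated together (every r over 0.1, from 0.111 to 0.282) only in DEX against BSS at day 30, where the block gave 0.15 for Folh1 with adjusted p = 0.838 by limma. Alternatives were other probe set choices, scalings, array weights, robust and 2-group fits, the replicate block and leaving out arrays.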

Additional observations from a re-analysis of the deposited data

How the results depend on the processing

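Folh1 kept its side of the threshold in all 4 tested comparisons under every alternative, and turned in sign only on leaving out BSS day 30 replicate 2 (DEX minus BSS at day 30) or DEX day 30 replicate 1 (DEX between the days), or in DEX minus BSS at day 7 and BSS between the days, which lay near 0. TAA minus BSS and TAA minus DEX at day 7, which are not tested, were 1.40 and 1.33 with array weights. On leaving out 1 array TAA minus BSS at day 7 ran from 1.58 to 2.15, TAA minus DEX at day 7 from 1.48 to 2.05, DEX minus BSS at day 7 from -0.01 to 0.24, TAA day 30 minus TAA day 7 from -1.56 to -0.99 and BSS day 30 minus BSS day 7 from -0.10 to 0.23. In the tested comparisons it ran from 0.27 to 0.69 for TAA minus BSS at day 30, from -0.02 to 0.31 for DEX minus BSS at day 30, from 0.12 to 0.52 for TAA minus DEX at day 30 and from -0.00511 to 0.24 for DEX day 30 minus DEX day 7. With array weights TAA minus BSS at day 30 was 0.29 and TAA minus DEX at day 30 was 0.04. The weights were lowest for TAA day 30 replicate 2 (0.195), TAA day 7 replicate 2 (0.261) and DEX day 30 replicate 3 (0.273) and highest for TAA day 7 replicate 3 (4.15). Adjusted p for Folh1 over all alternatives ran from 0.502 to 0.957 for TAA minus BSS at day 30, from 0.429 to 0.988 for DEX minus BSS, from 0.388 to 0.926 for TAA minus DEX and from 0.412 to 0.997 for DEX between the days, all by limma.

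Counts of genes that passed depended on the setting far more, and the cause was not tested. For TAA minus BSS at day 7 the count of 1 became 3 with the mean of probe sets, 0 with 2 groups only, 2 with quantile scaling, 49 with array weights and 0 with the replicate block, and for TAA minus DEX at day 7 the count of 1 became 0, 2 and 747 with the 2-group, quantile and weighted fits and 0 with median centring, the robust fit and the replicate block. For TAA minus BSS at day 30 the count of 0 became 1 with the mean of probe sets, weights, the robust fit and the replicate block. For DEX minus BSS at day 30 the count of 0 became 2699 with weights, and for TAA minus DEX at day 30 it became 2367 with weights and 101 with the block. For DEX day 30 minus DEX day 7 the 479 genes became 89 with 2 groups only, 245 with quantile scaling, 4158 with weights and 316 on keeping the genes of upper interquartile range. DEX minus BSS at day 7 gave 2 with 2 groups and 164 with weights (0 otherwise reported), TAA day 30 minus TAA day 7 gave 1 with quantile scaling, 71 with weights and 7 with the block (0), and BSS day 30 minus BSS day 7 gave 3, 50 and 527 with 2 groups, quantile scaling and weights (5). The 5 calls among list members became 157 with weights and 8 with the block. On leaving out 1 array the counts ran, in the same order of comparisons, from 0 to 15, 0 to 5, 0 to 0, 0 to 695, 0 to 1253, 1 to 1274, 0 to 1, 0 to 31 and 0 to 5, and from 0 to 47 for list members. For DEX between the days the lowest came without DEX day 7 replicate 1 and the highest without DEX day 30 replicate 3, which also gave the highest counts of DEX minus BSS and TAA minus DEX at day 30. These left-out counts, and all alternatives for list members and named genes, were added after seeing the data. Of 2648 alternative values of named genes, 32 lost a call and 64 moved by more than 1 SD, and the 5 called genes kept their sign.

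The replicate block changed no call in the 4 tested comparisons of Folh1, with TAA minus BSS at day 30 at 0.53 (adjusted p = 0.655 by limma). The 1 gene in each of TAA minus BSS and TAA minus DEX at day 7 was Folh1 itself, which restates its choice and is no test of it. In both comparisons the count was 0 with the block and with 2 groups only. It was also 0 on leaving out any compared array except TAA day 7 replicate 3. For TAA minus DEX it was 0 with median centring and the robust fit as well. Apart from DEX and BSS at day 30, some same-numbered arrays correlated below 0.1 in every comparison, with r from -0.166 to 0.155 for TAA and BSS at day 30 (1 of 3 numbers correlated best with itself). For DEX between the days, DEX and BSS at day 7 and BSS between the days, 3 of 3 did and all r were above 0 (0.0344 to 0.244, 0.0388 to 0.153 and 0.0571 to 0.189), a hint from the data and not from the design. A fit with another Folh1 probe set was not run, because 1 probe set names it alone. Signal over background could not be judged from centred values.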

Other observations

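The day 30 minus day 7 difference of the TAA effect (TAA minus BSS) was -1.34 for Folh1, a description since it uses the arrays of the choice, and that of the DEX effect was 0.06. Over all 18193 genes, 0 passed in that interaction for TAA by limma (smallest adjusted p = 0.473) and 0 for DEX (smallest adjusted p = 0.283).

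Of the 7 genes most like Folh1 that had promoter windows, 0 held ACANNNTGT, 0 held AGAACA, 1 (Aldoc, in its second window) held TTCNNNGAA and 0 held TATAAA.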
